A study of Mus musculus with 12 samples.

Results

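This report describes 10 genes used as markers of liver sinusoidal endothelial cells: Stab1, Stab2, Lyve1, Clec4g, Fcgr2b, Pecam1, Cdh5, Kdr, Oit3 and Dnase1l3. They were chosen by name, as the rows with these symbols in the authors' count table, which held 24527 gene symbols. All 10 were found, and all 10 passed the filter on low counts together with 13194 other genes. The data were messenger RNA counts of 12 libraries from livers of mice aged 39 weeks, all offspring of CF1 mothers and B6SJL fathers. Natural females, natural males, IVF females and IVF males made up 4 groups of n = 3 libraries, where natural means conceived by mating and IVF means conceived by in vitro fertilization following a Jackson Laboratory protocol. The labels name no allele, transgene or drug in any group. The study asked whether conception by IVF changes the adult liver and whether the sexes differ in this. RNA came from a portion of snap-frozen liver, so the values are averages over all liver cells, and fewer endothelial cells cannot be told apart from less RNA of these genes per cell.

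Sinusoids are the capillaries of the liver, and their endothelium is unlike that of other organs. It is perforated by open pores, lacks a continuous basement membrane and takes up waste from the blood through scavenger receptors. Stab1 and Stab2 encode large scavenger receptors of this type, Lyve1 encodes a hyaluronan receptor shared with lymphatic vessels, Clec4g encodes a C-type lectin, and Fcgr2b encodes an inhibitory IgG receptor that clears immune complexes and is also made by B cells and macrophages. Pecam1 and Cdh5 encode adhesion molecules of endothelial junctions in all vessels, and Kdr encodes the main receptor for the growth factor VEGF-A. Oit3 and Dnase1l3 encode a zona pellucida domain protein and a secreted nuclease that degrades DNA in blood, the latter made by macrophages and dendritic cells as well.

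Promoters are shown for Clec4g, Stab2 and Stab1, the receptors of the sinusoidal surface, because these 3 members hold matches to the ETS motif and ETS factors are general regulators of endothelial genes; the motifs were chosen after the values were seen. The stretches run from 250 bases before to 50 bases after the start site (RefSeq, GRCm38.p6), and capitals mark the letters AGGAAG or their reverse complement, with overlapping matches joined.
Clec4g, chr8:3720602-3720901, minus strand: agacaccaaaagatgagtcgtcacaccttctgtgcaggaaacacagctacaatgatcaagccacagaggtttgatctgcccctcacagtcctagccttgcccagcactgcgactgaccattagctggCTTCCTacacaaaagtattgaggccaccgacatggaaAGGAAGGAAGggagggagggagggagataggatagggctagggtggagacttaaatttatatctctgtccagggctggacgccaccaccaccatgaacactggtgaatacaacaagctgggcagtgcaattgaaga
Stab2, chr10:87007893-87008192, minus strand: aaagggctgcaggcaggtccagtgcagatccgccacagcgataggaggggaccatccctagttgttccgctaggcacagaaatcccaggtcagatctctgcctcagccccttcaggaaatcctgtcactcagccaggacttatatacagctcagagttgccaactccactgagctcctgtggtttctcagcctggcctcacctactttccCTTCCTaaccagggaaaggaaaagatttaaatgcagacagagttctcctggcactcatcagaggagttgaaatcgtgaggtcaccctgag
Stab1, chr14:31168592-31168891, minus strand: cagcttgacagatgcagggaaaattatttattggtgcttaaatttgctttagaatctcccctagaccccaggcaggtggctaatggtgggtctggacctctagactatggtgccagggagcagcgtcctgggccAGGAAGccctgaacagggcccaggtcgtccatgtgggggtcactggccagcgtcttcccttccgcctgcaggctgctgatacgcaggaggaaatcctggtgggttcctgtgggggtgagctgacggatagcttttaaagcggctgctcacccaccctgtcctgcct
RefSeq promoters were matched for 5 members, the others being Fcgr2b and Kdr. AGGAAG was found on either strand in 3 of these 5, with 3 matches in Clec4g and 1 each in Stab2 and Stab1, and in 35.4% of 32851 promoters of the same length. The letters AGATAA, a form of the GATA motif, were found in 0 of the 5 and in 11.2% of all promoters. Other forms of this motif were not searched. A match is a string of letters and was not tested as a binding site.

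The members were detected in every library, with 41 to 195 counts for Lyve1 and 108 to 1770 counts for the other members. Levels are given in CPM, read counts relative to library totals scaled by TMM (trimmed mean of M values). Per kilobase of exon, the order of mean levels over the 12 libraries began with Clec4g, at 19.0 ± 2.47 CPM per kb (SD, n = 12). Dnase1l3 followed at 12.5 ± 4.66, Fcgr2b at 10.3 ± 2.29 and Kdr at 8.78 ± 1.44 CPM per kb (SD, n = 12). Clec4g was thus the most abundant member per length, above Dnase1l3 in 10 of 12 libraries, while Dnase1l3, Fcgr2b and Kdr each exceeded the next gene in 9. Cdh5 and Oit3, at 7.70 ± 2.34 and 6.58 ± 0.84 CPM per kb (SD, n = 12), each lay above the other in 6 libraries. Stab2 and Stab1 did not separate either, at 5.43 ± 1.08 and 5.14 ± 1.63 CPM per kb (SD, n = 12), with Stab2 higher in 7 libraries. Pecam1 at 3.27 ± 0.57 and Lyve1 at 2.23 ± 1.17 CPM per kb (SD, n = 12) were the lowest. Exon lengths were those of GENCODE M21 (GRCm38), from 2.43 kb for Clec4g to 8.23 kb for Stab2.

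The scavenger receptor genes differed in how evenly they were expressed among libraries. Stab1 (chromosome 14, 31139013 to 31168641, GRCm38) had 51.7, 19.3 and 51.7 CPM in natural females, 19.3, 53.2 and 41.5 in IVF females, 58.4, 40.2 and 42.4 in natural males, and 50.0, 36.6 and 28.8 in IVF males. Its lowest libraries were natural female replicate 2 and IVF female replicate 1, both below every other library. Stab2 (chromosome 10, 86841198 to 87008025) had 61.8, 44.7 and 33.6 CPM in natural females, 47.8, 60.5 and 45.3 in IVF females, 44.0, 43.9 and 41.9 in natural males, and 38.9, 33.5 and 40.1 in IVF males. All 3 IVF males lay below all 3 natural males, and all 3 IVF females lay above every male, while the natural females overlapped the other groups. Lyve1 (chromosome 7, 110850607 to 110863239) had 3.65, 15.6 and 7.13 CPM in natural females, 6.09, 2.54 and 7.57 in IVF females, 4.93, 6.79 and 7.71 in natural males, and 3.23, 4.82 and 7.46 in IVF males. Natural female replicate 2 was the highest library for Lyve1, and the 4 groups otherwise overlapped.

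The lectin gene Clec4g (chromosome 8, 3707064 to 3720651) was the most even of the receptors, with 48.8, 44.6 and 49.2 CPM in natural females, 39.0, 56.2 and 51.9 in IVF females, 50.1, 50.5 and 39.7 in natural males, and 47.0, 38.2 and 38.8 in IVF males. All its groups overlapped. Fcgr2b (chromosome 1, 170958617 to 170976547) had 41.2, 53.0 and 38.4 CPM in natural females, 47.8, 51.7 and 40.9 in IVF females, 33.2, 41.6 and 26.0 in natural males, and 32.6, 27.8 and 34.5 in IVF males. Natural male replicate 2 was the male library that reached into the female range of this IgG receptor.

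Among the genes of endothelial junctions and growth, Pecam1 (chromosome 11, 106654217 to 106750628) had 14.2, 17.6 and 12.7 CPM in natural females, 16.0, 16.2 and 13.5 in IVF females, 13.1, 12.2 and 13.1 in natural males, and 13.8, 9.99 and 9.61 in IVF males. Its lowest libraries were IVF male replicates 2 and 3. Cdh5 (chromosome 8, 104101625 to 104144511) had 28.2, 33.7 and 37.8 CPM in natural females, 53.1, 38.7 and 26.9 in IVF females, 27.0, 33.0 and 26.8 in natural males, and 20.8, 19.2 and 23.7 in IVF males. The 3 IVF males were the 3 lowest of the 12 libraries for this cadherin gene, and IVF female replicate 1 was the highest. Kdr (chromosome 5, 75932827 to 75978458) had 63.0, 42.8 and 56.9 CPM in natural females, 47.5, 68.8 and 57.8 in IVF females, 57.1, 45.9 and 41.4 in natural males, and 46.0, 49.4 and 47.5 in IVF males, so that all groups overlapped.

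Of the secreted products, Oit3 (chromosome 10, 59422958 to 59441778) had 20.4, 17.0 and 18.4 CPM in natural females, 18.4, 19.8 and 20.2 in IVF females, 19.9, 17.7 and 18.4 in natural males, and 16.8, 15.2 and 12.6 in IVF males. The 3 IVF males were again the 3 lowest libraries. The nuclease gene Dnase1l3 (chromosome 14, 7964533 to 7994573) had 53.3, 100.4 and 46.1 CPM in natural females, 103, 73.6 and 61.9 in IVF females, 58.1, 47.8 and 49.0 in natural males, and 46.1, 41.8 and 33.6 in IVF males. IVF female replicate 1 and natural female replicate 2 were its highest libraries.

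**Figure D1:**
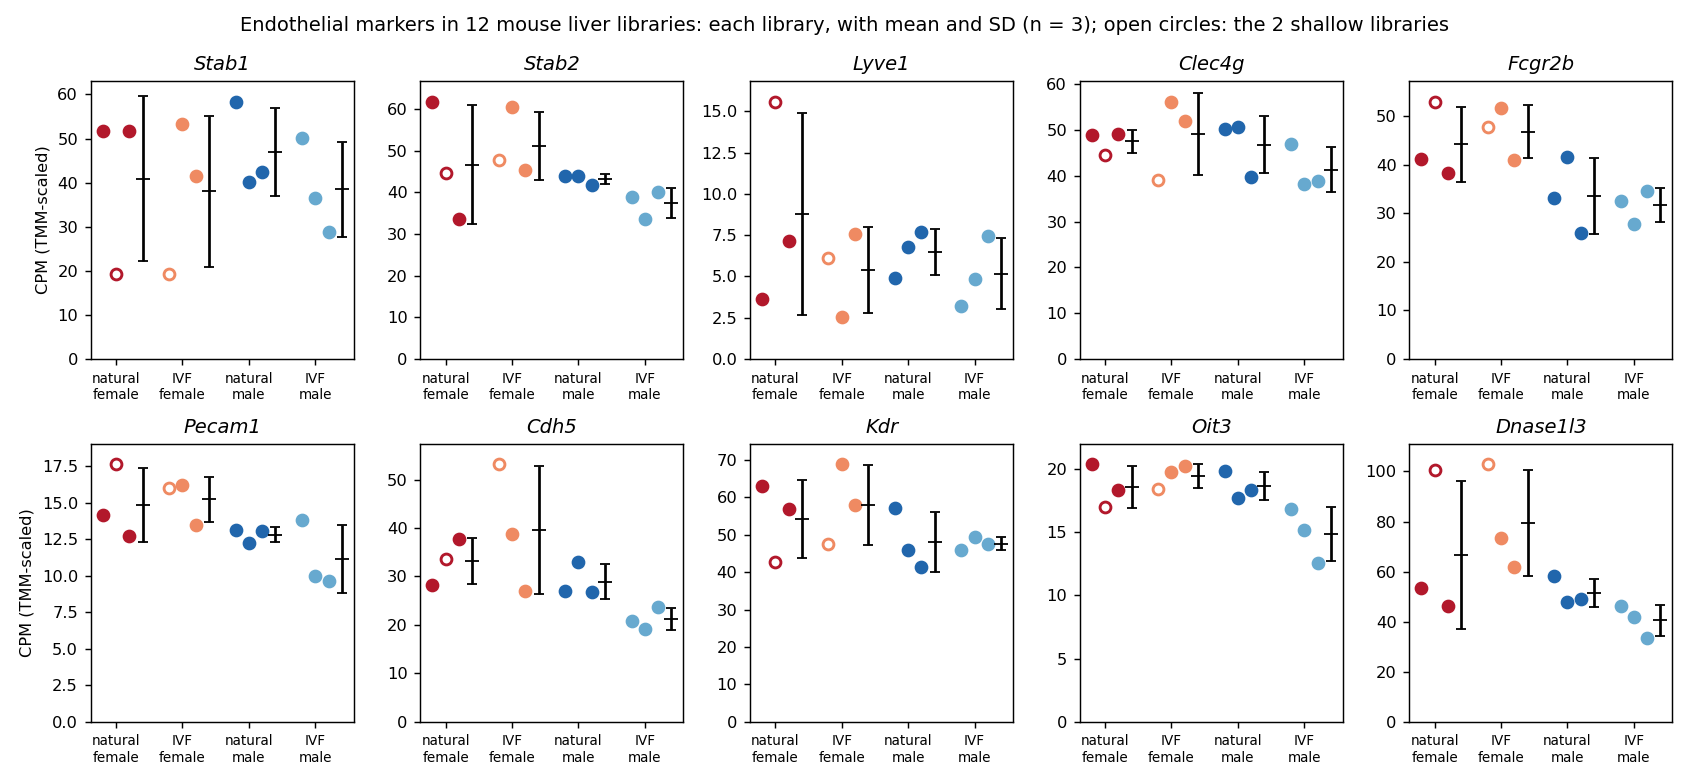
CPM of each member (y axes, TMM-scaled, from 0) in the 12 libraries, by group on the x axes, with the mean and SD of n = 3 beside the points and open circles for the shallow female libraries. The open circles are lowest for Stab1, at 19.3 CPM in both, and highest for Dnase1l3, at 103 and 100.4 CPM, and the IVF males lie below the natural males for Stab2, Cdh5, Oit3 and Dnase1l3.

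The open circles mark the 2 libraries of smallest total, called shallow here: IVF female replicate 1 with 6826534 counts and natural female replicate 2 with 8056230, against 14002847 to 27832271 in the other 10. There was 1 of them in each female group and none among the males. The gene Rn45s took 0.19% of the counts in IVF female replicate 1 and 0.74% in natural female replicate 2. In the other 10 libraries it took 1.33% to 3.76%. Stab1 averaged 19.3 CPM in these libraries and 49.5 in the other 4 females, a log2 difference of -1.35. Clec4g and Kdr were also below all 4 other females there, with log2 differences of -0.30 and -0.45. Dnase1l3 was above all 4, at a mean of 102 against 58.7 CPM and a log2 difference of 0.81. The other 6 members overlapped, and among them Lyve1 differed most, by 1.02 on the log2 scale, through natural female replicate 2. Stab1 had the highest G and C content of the members, 57.3% of its longest transcript, Dnase1l3 had 48.5%, and Fcgr2b and Lyve1 had the lowest, 45.4% and 45.8%. Kdr and Clec4g had 49.4% and 51.5%. Cdh5, at 52.2%, had a log2 difference of 0.38, and Fcgr2b, the lowest in G and C, had 0.23, both with overlap. The parts of base composition, of depth and of what sets the Rn45s share in these differences were not tested.

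**Figure D2:**
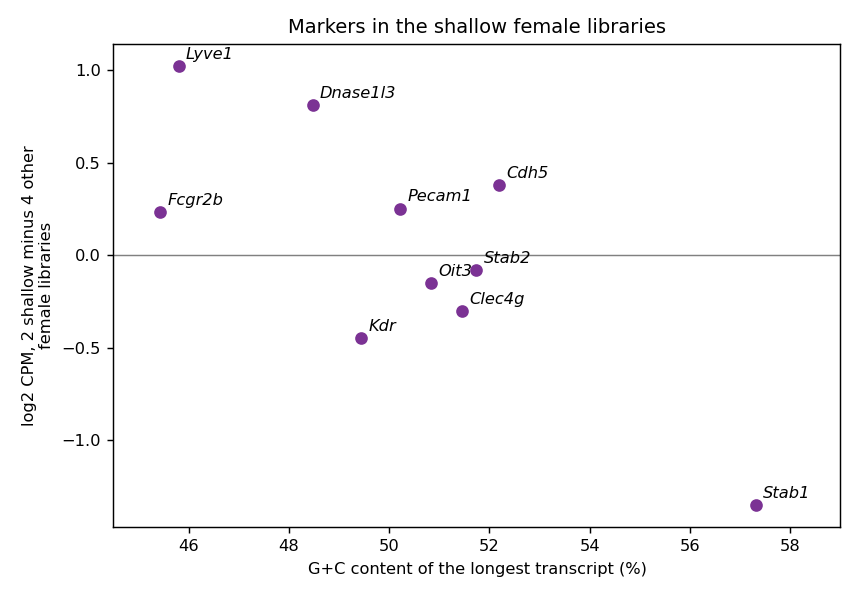
Log2 CPM of each member in the shallow female libraries minus that in the 4 other females (y axis), against the percentage of G and C in its longest transcript (x axis). Stab1, at 57.3%, has -1.35, and Lyve1 and Dnase1l3, at 45.8% and 48.5%, have 1.02 and 0.81. Cdh5, at 52.2%, has 0.38, and Fcgr2b, at 45.4%, has 0.23.

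No member separated IVF from natural females. Calls were made with edgeR's quasi-likelihood test at an adjusted p (Benjamini-Hochberg, over 13204 genes) under 0.05, as were all adjusted p-values given as edgeR's. Here 0 of 10 members were called, and 0% of all genes. DESeq2's Wald test and limma voom also called 0 members, and 0 had an unadjusted p under 0.05 in edgeR, a level reached by 3.7% of all genes. The fitted log2 fold change, IVF minus natural, was above 0 for 8 members, against 47.8% of all genes, with a median of 0.08 over the members and -0.01 over all genes. It went from -0.68 ± 0.53 (SE) for Lyve1 to 0.26 ± 0.29 (SE) for Dnase1l3 and 0.25 ± 0.23 (SE) for Cdh5. These ends rested on single libraries. Lyve1 was at -0.00098 without natural female replicate 2, its highest library, and at -1.07 without natural female replicate 1. Dnase1l3 had 0.67 without natural female replicate 2 and 0.05 without IVF female replicate 1, and Cdh5 had 0.0033 without IVF female replicate 1 and 0.46 without IVF female replicate 3. Those of Stab1 and Stab2 were -0.10 ± 0.41 and 0.13 ± 0.22 (SE). Stab1 turned to 0.22 without IVF female replicate 1, to 0.10 without natural female replicate 1 and to 0.12 without natural female replicate 3. The count of members above 0 was 8 with both shallow libraries left out, 5 by library size alone, 4 without IVF female replicate 2 and 7 to 9 with any other female library left out. For 10 of 10 members the libraries of both groups overlapped, while 7.42% of all genes had no overlap. In data simulated for this comparison, with 13105 genes, the test recovered 15% of genes changed 2-fold and 68% of those changed 4-fold.

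In males, all 10 members had lower fitted values after IVF, and none passed the test. The members' log2 fold changes had a median of -0.25, against 0.01 over all genes, of which 48.4% were below 0. Cdh5 averaged 21.3 ± 2.28 CPM after IVF and 28.9 ± 3.53 after mating (SD, n = 3), a log2 fold change of -0.44 ± 0.23 (SE) or 1.36-fold lower. Oit3 had 14.8 ± 2.15 against 18.6 ± 1.12 CPM (SD, n = 3), with -0.33 ± 0.16 (SE). Dnase1l3 had 40.5 ± 6.35 against 51.6 ± 5.62 CPM (SD, n = 3), with -0.35 ± 0.29 (SE). Stab2 had 37.5 ± 3.50 against 43.3 ± 1.19 CPM (SD, n = 3), with -0.21 ± 0.22 (SE). For these 4 members every IVF male lay below every natural male, as was the case for 4.07% of all genes. The growth factor receptor gene Kdr was the least different, at 47.6 ± 1.70 against 48.1 ± 8.05 CPM (SD, n = 3) and -0.02 ± 0.20 (SE). Stab1, Lyve1, Clec4g, Fcgr2b and Pecam1 had log2 fold changes of -0.29 ± 0.41, -0.32 ± 0.52, -0.18 ± 0.18, -0.08 ± 0.21 and -0.20 ± 0.19 (SE), with overlapping libraries. With 1 library left out, Oit3 ranged from -0.43 to -0.22, Stab2 from -0.26 to -0.13 (without IVF male replicate 2), Dnase1l3 from -0.45 to -0.23 (without IVF male replicate 3) and Cdh5 from -0.53 to -0.35.

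In this male comparison edgeR's adjusted p was 1 for each member, and 0.00757% of all genes were called. In edgeR 0 members had an unadjusted p under 0.05, against 2.69% of all genes, and DESeq2 and limma voom called 0. Scaling bore on the direction. By library size alone, Fcgr2b and Kdr turned to 0.05 and 0.12, the members' median was -0.11 while that of all genes moved to 0.14, and Cdh5 was the 1 member whose groups did not overlap. Taken relative to the median of all genes, the members' median was near -0.25 under both scalings. Leaving out natural male replicate 1 turned Kdr to 0.12 and leaving out IVF male replicate 1 turned it to 0.0082, and leaving out natural male replicate 2 turned Fcgr2b to 0.09.

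Markers of other liver cells stood beside these values in males. Among 13 genes of Kupffer cells, the resident macrophages, 12 had lower fitted values after IVF, 10 of them without overlap, with a median log2 fold change of -0.66. Their summed level ran from 239 to 353 CPM after IVF and from 429 to 476 CPM after mating, and none of the 13 was called by edgeR or at 0, while 8 had an unadjusted p under 0.05. Hepatocyte genes had a median of -0.24, with 8 of 10 lower and 0 called. Genes of fibroblasts and of stellate cells, the pericytes of the sinusoid, formed 1 list. It had -0.18, with 11 of 12 lower and 0 called, and in both this list and that of hepatocytes 0 genes had an unadjusted p under 0.05. The B cell genes went the other way, with 4 of 4 higher, a median of 1.48, 0 called and 2 at an unadjusted p under 0.05, with summed levels of at most 3.70 CPM. The endothelial members summed to 277 to 315 CPM after IVF and 306 to 366 CPM after mating. Of 20 genes of endothelium in all vessels, 10 were lower and 10 higher after IVF, with a median of 0.0014. Of 10 further sinusoidal genes 9 were lower, with a median of -0.12. Of 8 tested genes of continuous and large vessels 5 were lower (median -0.14), and of 6 endothelial signal genes 4 were (median -0.09). In these endothelial lists 0 genes were called, and their difference from the members was not tested. The part of a changed cell mixture in the members' values was not tested.

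Whether IVF acted differently in males and females was tested as the difference of both effects. Of the 10 members 0 were called, and 0% of all genes. In edgeR 0 members had an unadjusted p under 0.05, against 3.87% of all genes. DESeq2 and limma voom called 0 as well. The difference, males minus females, was below 0 for 9 of 10 members, against 46.4% of all genes, with a median of -0.24 over the members and 0.03 over all genes. It was furthest from 0 for Cdh5, at -0.69 ± 0.33 (SE; edgeR's adjusted p = 1), and Lyve1 was the member above 0. The value of Cdh5 was -0.46 ± 0.30 (SE) without both shallow libraries, one of which is its highest, IVF female replicate 1. Kupffer cell genes stood beside this, with 13 of 13 below 0, a median of -0.77, 0 called and 7 at an unadjusted p under 0.05, and their part in the members' values was not tested. Averaged over both sexes, the IVF effect was below 0 for 9 of 10 members, against 50.9% of all genes. The median was -0.07 over the members and -0.004 over all genes. The 9 include values well within their SE, such as Stab2 at -0.04 ± 0.15 and Dnase1l3 at -0.05 ± 0.20 (SE). Fcgr2b, at -9.6e-06, lay too near 0 for an SE derived from the fitted value. Lyve1 was furthest from 0, at -0.50 ± 0.37 (SE), and at -0.16 without natural female replicate 2. Here 0 of 10 were called by edgeR, DESeq2 or limma voom or had an unadjusted p under 0.05 in edgeR. Of all genes 0.00757% were called there and 2.69% had such a p.

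**Figure D3:**
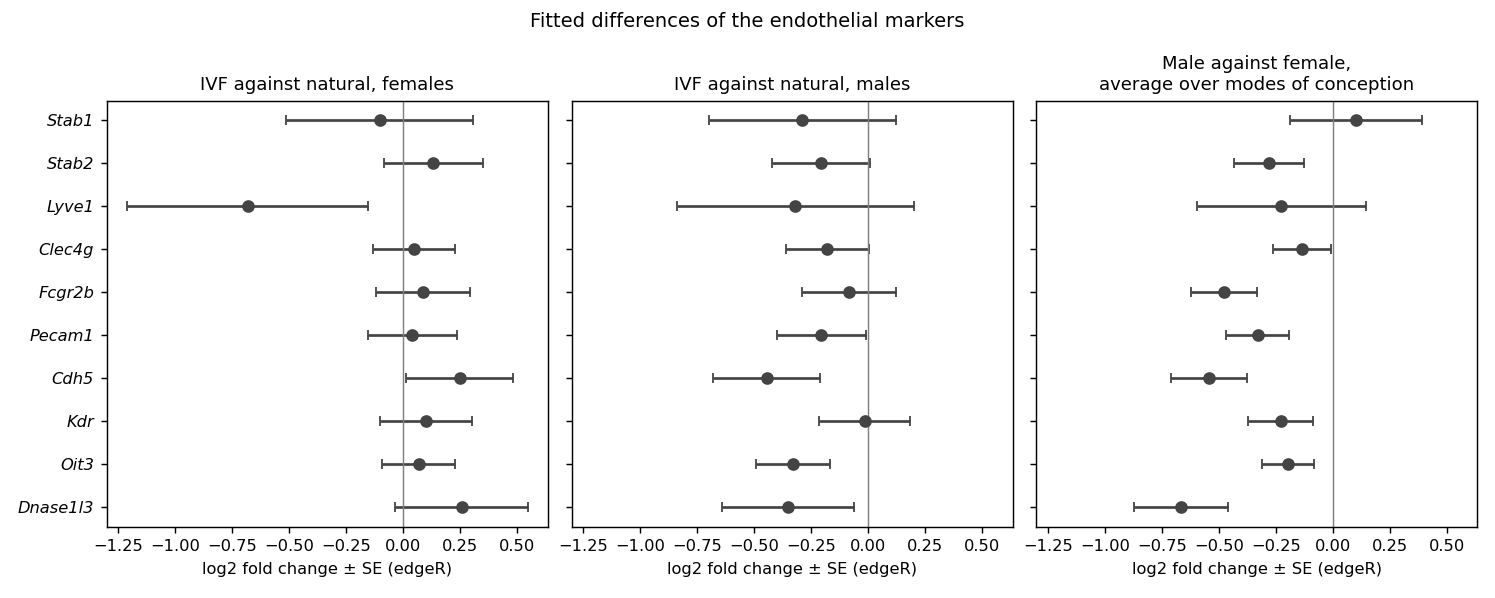
Fitted log2 fold change of each member with its SE (x axes) for IVF against natural conception in females, the same in males, and males against females averaged over modes of conception. All 10 points lie below 0 in the male panel, 8 lie above 0 in the female panel, and 9 lie below 0 in the panel of the sexes.

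Males had lower fitted levels than females for 9 of 10 members, averaged over both modes of conception, and none passed an adjusted p of 0.05. The median log2 fold change, male minus female, was -0.26 over the members and -0.01 over all genes, of which 51% were below 0. Dnase1l3 had 73.0 ± 24.0 CPM (SD, n = 6) in females and 46.0 ± 8.11 CPM (SD, n = 6) in males, a log2 fold change of -0.67 ± 0.21 (SE; edgeR's adjusted p = 0.0737). Cdh5 had 36.4 ± 9.50 against 25.1 ± 4.97 CPM (SD, n = 6), with -0.54 ± 0.17 (SE; edgeR's adjusted p = 0.0707). Fcgr2b had 45.5 ± 6.16 against 32.6 ± 5.50 CPM (SD, n = 6), with -0.48 ± 0.15 (SE; edgeR's adjusted p = 0.0711). Of all genes 7.2% were called, 3.63% as lower in males. Pecam1, at 15.0 ± 1.87 against 12.0 ± 1.76 CPM (SD, n = 6), was the fourth member with an unadjusted p under 0.05, a level reached by 23.6% of all genes.

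For 10 of 10 members the female and male libraries overlapped, while 5.75% of all genes had no overlap. Stab2, Kdr, Oit3 and Clec4g had log2 fold changes of -0.28 ± 0.15, -0.23 ± 0.14, -0.20 ± 0.11 and -0.14 ± 0.13 (SE). Lyve1 had -0.23 ± 0.37 (SE), and Stab1 was the exception in sign, at 0.10 ± 0.29 (SE). Counted by library, 6 to 9 of the 10 members lay above their own mean over the 12 libraries in each of the 6 females, 3 to 6 in the natural males, and 3, 0 and 1 in the IVF males. The summed level was lowest in IVF male replicates 2 and 3, at 277 CPM in each, and highest in IVF female replicate 2, at 441 CPM. It averaged 376 CPM in natural females and 337 in natural males, and 402 in IVF females and 289 in IVF males (n = 3 each). The sexes were not tested within a single mode of conception.

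The call of a sex difference depended on the test and on single libraries. DESeq2's Wald test called 3 members, Fcgr2b, Cdh5 and Dnase1l3 (adjusted p from 0.0256 to 0.0262), all lower in males, as were 6.69% of all genes by that test. limma voom called 0 members and 3.6% of all genes as lower. At an adjusted p under 0.1 edgeR called the same 3, and 6.28% of all genes as lower. Scaling by library size alone called those and Pecam1, along with 10.4% of all genes as lower, with the median of all genes at -0.22 and that of the members at -0.47. Without IVF female replicate 3, edgeR called Cdh5 (adjusted p = 0.0287) and 2.88% of all genes as lower, and without natural female replicate 3 it called Dnase1l3 (adjusted p = 0.0429) and 3.09% of all genes as lower. Leaving out both shallow libraries again gave 9 members below 0 and 0 called, but not the same 9. Stab1 then had -0.25 ± 0.17 (SE) and Lyve1 0.14 ± 0.35 (SE). Dnase1l3 moved from -0.67 to -0.37 ± 0.12 (SE), and Kdr from -0.23 to -0.39 ± 0.11 (SE; edgeR's adjusted p = 0.0658).

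Other endothelial genes gave a background for the members. Of 10 further genes of the sinusoidal endothelium, edgeR called 2 as lower in males and 0 as higher, and the median log2 fold change was -0.42. Maf, a transcription factor of these cells, had 78.1 ± 26.0 CPM in females and 43.6 ± 9.32 in males (SD, n = 6), with -0.82 ± 0.21 (SE; edgeR's adjusted p = 0.0406). Mrc1, the mannose receptor, had 59.2 ± 13.4 and 39.5 ± 6.66 CPM (SD, n = 6), with -0.59 ± 0.16 (SE; edgeR's adjusted p = 0.0497). Both genes are also expressed in macrophages. The 10 genes summed to 374 and 383 CPM in the shallow female libraries, 299 to 332 in the 4 other females and 221 to 313 in males. Whether the calls of Maf and Mrc1 hold without the shallow libraries was not examined here. Ehd3 and F8, the gene of coagulation factor VIII, had -0.33 ± 0.14 and -0.45 ± 0.18 (SE) and did not pass. For IVF, 0 of these 10 genes were called in either sex in edgeR, and 0 had an unadjusted p under 0.05.

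Genes of endothelium in all vessels had a median nearer to 0; the difference between the lists was not tested. Of 20 such genes, 0 passed between the sexes, 17 were below 0 in males, and the median was -0.18. Ptprb and Eng, the most abundant of them, encode a phosphatase of the Tie2 pathway and a TGF-beta coreceptor, and had log2 fold changes of -0.16 ± 0.13 and -0.21 ± 0.18 (SE). Of 8 tested genes of continuous and large vessels 0 passed and 5 were above 0 in males, with a median of 0.17. Plvap had -0.30 ± 0.19 and Vwf, the gene of von Willebrand factor, 0.45 ± 0.30 (SE). Signals sent by endothelium to hepatocytes, such as Bmp2 (-0.37 ± 0.17, SE) and the Wnt enhancer Rspo3 (-0.54 ± 0.20, SE), had a median of -0.07 over 6 genes, and 0 passed. In edgeR 0 genes of these 3 lists were called for IVF in females or males, and at an unadjusted p under 0.05 there were 0 in females and 1 in males. The lymphatic vessel genes Mmrn1 and Pdpn summed to at most 1.45 CPM in any library. Ccl21a, which has near-identical copies, was listed at 0 in all 12, and since the handling of reads shared between copies is not known this gives no level. Lyve1, the member shared with lymphatic vessels, had at least 2.54 CPM in every library.

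Markers of the cells that share some members also differed between the sexes. Kupffer cell genes had lower fitted levels in males in 13 of 13 cases, with 5 called, Clec4f, Vsig4, Timd4, C1qb and Folr2, and a median log2 fold change of -0.66. Vsig4, a complement receptor, had 48.0 ± 13.3 CPM in females and 18.1 ± 4.61 in males (SD, n = 6), with -1.44 ± 0.19 (SE; edgeR's adjusted p = 0.000738). Summed over the list, levels were 445 to 692 CPM in females and 239 to 476 in males, and no marker of the list was at 0. Genes of stellate cells and fibroblasts had lower fitted levels in 12 of 12 cases with 4 called, Lrat, Colec10, Lhx2 and Dcn, and a median of -0.63. Their sums were 522 and 630 CPM in the shallow female libraries, 448 to 529 in the 4 other females and 317 to 450 in males. The Kupffer cell sums were 445 and 607 CPM in the shallow libraries and 477 to 692 in the 4 other females. The B cell genes, which mark another source of Fcgr2b, summed to at most 4.41 CPM in any library, without Ighm. Of 4 tested, 1 was called as lower in males, Cd79b. T and NK cell genes summed to at most 5.15 CPM. Of these, 5 of 5 tested had lower fitted levels in males, with a median log2 fold change of -1.55, and 2 were called, Cd3g and Nkg7. Of 10 hepatocyte genes 0 passed and 6 were above 0 in males, and of 5 tested cholangiocyte genes and 5 tested genes of red cells and platelets 0 passed, with the globin genes Hba-a2, Hbb-bs and Hbb-bt, which also have near copies, listed at 0 in all libraries. The part of macrophage RNA in the lower levels of Dnase1l3 and Fcgr2b was not tested, nor was that of B cell RNA in the level of Fcgr2b.

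**Figure D4:**
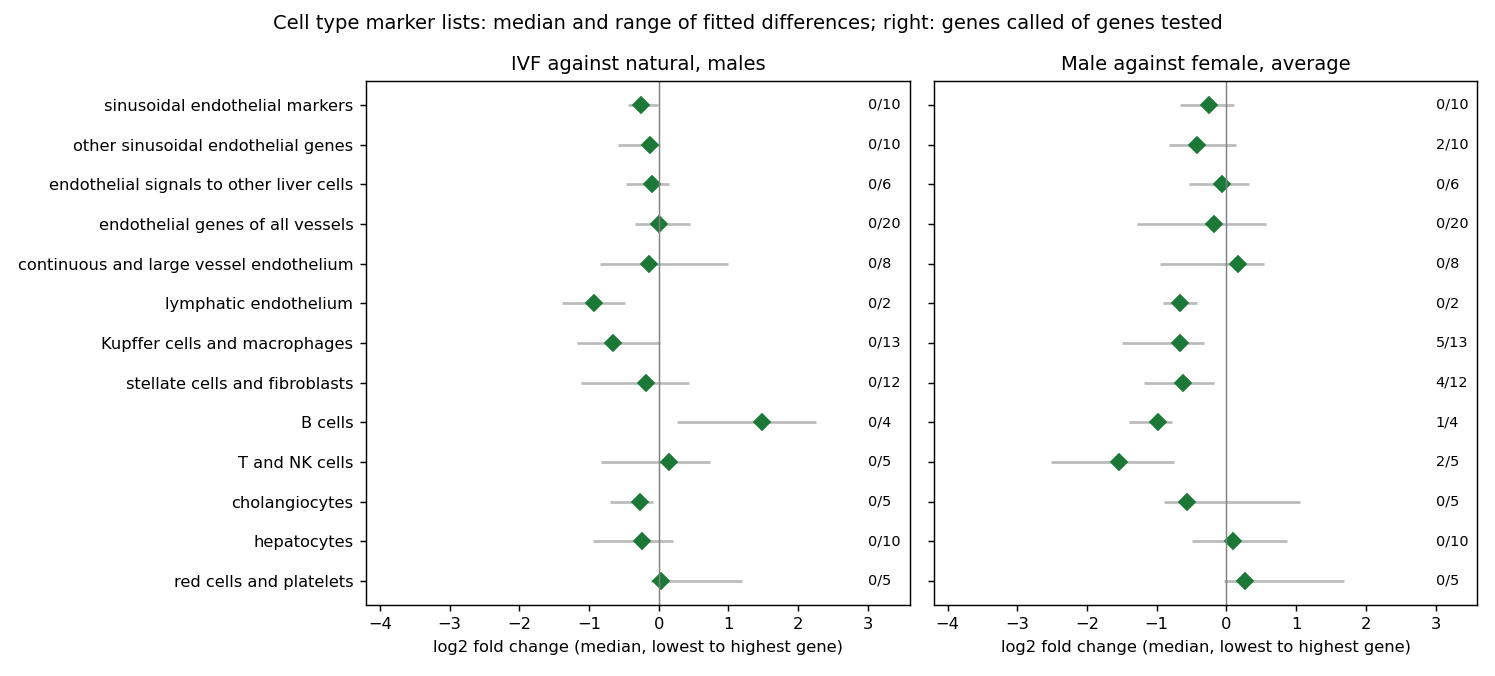
Median (diamond) and lowest to highest (line) fitted log2 fold change over the tested genes of each marker list (x axes), for IVF against natural males and for males against females, with the number called of the number tested at the right. The sinusoidal endothelial markers have medians of -0.25 and -0.26 and 0 of 10 called in both, and Kupffer cell genes have -0.66 in both, with 5 of 13 called between the sexes.

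All tested genes other than the members, those of the other marker lists included, were ranked by how closely they followed the members among libraries. The measure was Pearson's r over 12 libraries between log2 CPM minus the group mean of a gene and the mean of the same values over the 10 members, given as a description, since each r was picked as the highest of 13194. Plin4, which encodes a lipid droplet protein, ranked first with r = 0.94. Zfp951, Ccdc157, Galnt1, 1810024B03Rik and Myl6b followed with r between 0.91 and 0.88. For single members the closest genes were Ankle2 for Stab2 (r = 0.96), Nynrin for Clec4g (r = 0.95) and Hps5 for Kdr (r = 0.98). The next 2 were Gm12060 and Kdm4a for Stab2, Aldh3a2 and She for Clec4g, and Mrpl38 and Smg8 for Kdr. The lists of the 3 members shared 0 genes. All libraries, the shallow ones included, entered these values.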

How the data were processed

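Counts of reads per gene symbol from 12 liver libraries were deposited by the authors as 1 table of whole numbers, not normalized. The submitters' processing notes name Trimmomatic 0.32, STAR 2.3.0e, featureCounts 1.5.0 and the build mm10. Per the labels' protocols, messenger RNA was selected by poly(A) and sequenced on an Illumina instrument. The annotation, the strand setting and the handling of multiply mapped reads are not given in the sources used here, so reads of overlapping genes cannot be told apart. Columns were matched to samples by title, and replicates were numbered in accession order, which pairs none. Each title carries a different number, but the labels do not say that these are separate animals, so p-values measure the spread between these samples. The titles of IVF female replicate 1 and IVF male replicate 2 begin with the same number, whose meaning the labels do not give.

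The main test was edgeR 4.0.16 (R 4.3.3), quasi-likelihood, on all 12 libraries with 4 group means, filterByExpr and TMM. The 5 contrasts were adjusted by Benjamini-Hochberg over 13204 genes and called at 0.05. SE was taken as the absolute fitted value over the square root of F. CPM use TMM-scaled totals of the genes that passed. Alternatives were DESeq2 1.42.0, limma 3.58.1, other scalings and filters and left-out libraries. A GC offset (loess, span 0.5, GC known for 97.9% of genes) was added after the data were seen. Model code was tested on simulated data. A count of 0 allowed up to 0.445 CPM in the smallest library and 0.119 in the largest (3 counts, counting error only). GENCODE M21 gave positions and lengths. The members and marker lists were chosen with earlier results of these data known. All members were named, and of each other list the called genes and the 2 most abundant others (values in the text for those the results turn on), and the genes closest in pattern, 6 for the members' mean and 3 for each of Stab2, Clec4g and Kdr. Of the listed markers, Ighm was not analysed here.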

Additional observations from a re-analysis of the deposited data

How the results depend on the processing

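The 0 calls of members between IVF and natural animals, in either sex, in the difference and in the average, were the same under every alternative run. For males against females, 0 members called by edgeR became 4 by library size alone, 3 in DESeq2, 3 at an adjusted p under 0.1, and 0 to 1 with 1 library left out. Of 32 member values, 22 kept their sign under every alternative. By library size alone, signs turned for Clec4g (-0.019), Pecam1 (-0.022) and Oit3 (-0.0032) in females, Fcgr2b (0.054) and Kdr (0.12) in males, and Stab1 (-0.12) between the sexes. Stab1 between the sexes also turned without both shallow libraries (-0.25) and with a term for them (-0.22), as did Lyve1 (0.14 and 0.15), which turned in limma voom as well (0.0096). The GC offset turned Stab1 in females to 0.0083. With 1 library left out, values turned in females for Stab1 (-0.43 to 0.22), Stab2 (-0.034 to 0.39), Clec4g (-0.061 to 0.21), Pecam1 (-0.036 to 0.17) and Kdr (-0.044 to 0.24), in males for Fcgr2b (-0.24 to 0.091) and Kdr (-0.11 to 0.12), and between the sexes for Stab1 (-0.077 to 0.26) and Lyve1 (-0.42 to 0.12). The cause of these turns was not tested, and each of the 10 values that turned was smaller than its SE in edgeR. No paired analysis was possible because the titles share a number, of unstated meaning, in 1 pair of libraries only, IVF female replicate 1 (shallow, highest for Cdh5) and IVF male replicate 2. Lyve1, with as few as 41 counts in a library, had the largest SE between IVF and natural females.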
